A study of Mus musculus with 12 samples.

Results

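The genes described here are those of the matriptase-prostasin protease axis and of epithelial adhesion: Cdh1, St14, Prss8, Spint1, Spint2, Cd24a and Krt8. Their members are all array probes that carry one of these 7 gene names in the scanner files, which gave 10 of 41174 probes: 2 each for St14, Spint1 and Krt8 and 1 for each of the other genes. Gene expression was measured in cells of CD-1 mouse embryos at embryonic day 7.5, when mesoderm leaves the epithelial epiblast and the first blood and vessel precursors form. Cells of 1 pool of about 300 whole embryos from 25 litters were stained for the surface proteins Endoglin (gene Eng), a co-receptor for TGF-beta family ligands, and Flk1 (gene Kdr), the main VEGF receptor of vessel precursors, and sorted. The 4 fractions lacked both proteins (Eng-Flk1-), carried Flk1 alone (Eng-Flk1+), carried both (Eng+Flk1+) or carried Endoglin alone (Eng+Flk1-), each with 3 samples of 3000 cells. No embryo was treated or altered, so a comparison between fractions is one between cells that differ in these surface proteins and in whatever goes with them. Because all samples came from the same pool, p-values measure only how far sorted samples of that pool differ, which may be technical.

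Matriptase, encoded by St14, is a serine protease of the epithelial cell surface. Prostasin, encoded by Prss8, is a membrane-anchored serine protease that activates matriptase and is activated by it. The Kunitz-type inhibitors HAI-1 (Spint1) and HAI-2 (Spint2) hold the pair in check, and mouse embryos that lack one of these inhibitors fail to develop. E-cadherin (Cdh1) is the adhesion molecule of epithelial junctions and is lost from cells that leave the epiblast as mesoderm, Krt8 is a keratin of simple epithelia, and Cd24a is a small glycosylated surface protein found on many epithelial and progenitor cells. In the embryo at this stage, the epiblast, the visceral endoderm and the extraembryonic ectoderm are epithelia, while the mesoderm is not.

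Each level is the log2 processed signal of a probe minus the 75th percentile of its array, so that 0 is the level of a bright probe at that percentile and 1 unit is a doubling. Levels of different probes are not comparable with one another, since each probe has its own response. All 10 probes passed the filter on dim probes, which asks for a signal well above background on each of the 3 arrays of some fraction, and 33142 probes in all were tested. Of the 10, only the Spint2 probe was not well above background on every array: it was so on 10 of 12. Differences between fractions are given with the standard error (SE) of limma and with p-values adjusted by the Benjamini-Hochberg method over all probes of a comparison, and a difference counts as a change at an adjusted p under 0.05. A share of all probes that changed is given beside each count as its background.

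Across the 12 arrays, 66.5% to 76.3% of spots were well above background in Eng-Flk1- and 80.2% to 83.3% in the other fractions. The median SD of a probe was 1.09 for Eng-Flk1- against 0.626 to 0.733 in the others. The limma fit shares 1 spread per probe over all fractions. Its SE thus tends to be too small for comparisons with Eng-Flk1- and too large for those without it. The Kdr transcript, given here at 1 of its 2 probes, separated the sorted fractions. Its level was -6.20 ± 1.56 (SD, n = 3) for Eng-Flk1- and -5.38 ± 1.87 for Eng+Flk1-, against 1.11 ± 0.76 for Eng-Flk1+ and 1.64 ± 0.18 for Eng+Flk1+. The Eng transcript followed its protein less closely, with 2.10 ± 0.93 for Eng+Flk1+, 0.48 ± 0.55 for Eng+Flk1-, 0.49 ± 1.02 for Eng-Flk1+ and -0.49 ± 0.86 for Eng-Flk1-. The arrays lay on 3 slides that hold the fractions unequally, so slide and fraction are mixed. All 3 Eng-Flk1- arrays lay on slide 1 and all 3 Eng+Flk1- arrays on slide 3, so a difference between these fractions is also one between slides. Eng+Flk1+ shared no slide with Eng-Flk1-, nor did Eng-Flk1+ with Eng+Flk1-. With slide as a block in the model, all 11 member differences described below as changes kept their direction and none passed the threshold, with adjusted p from 0.0911 to 1.00.

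St14, Spint1 and Krt8 were each read by 2 probes at different places of the transcript. The probes of St14 and Spint1 are shown because they gave different patterns over the fractions. The probe sequences below are from the scanner files and run 5′ to 3′; the probes that cross an exon junction on the genome are printed whole, and of the others the first 30 bases are printed. No base is capitalised, since no motif is marked.

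St14 probe A_52_P459505, from base 1284 of the transcript: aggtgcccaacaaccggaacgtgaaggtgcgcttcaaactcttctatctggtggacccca

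St14 probe A_51_P282837, from base 2883: ctcagagttcttccaaagtgggaccccctc

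Spint1 probe A_52_P509886, from base 1514: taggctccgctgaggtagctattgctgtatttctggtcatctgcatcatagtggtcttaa

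Spint1 probe A_51_P341108, from base 1953: atagaaggacctgcttatccaagagctgga

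In mouse build mm8, as the scanner files give it, the St14 probe A_52_P459505 spans chr9:30850003-30852442 on the minus strand, that is, exon sequence on either side of an intron. The St14 probe A_51_P282837 lies nearer the 3′ end, at chr9:30839229-30839288. The Spint1 probe A_52_P509886 spans chr2:118939842-118940254 on the plus strand, again across an intron, and A_51_P341108 lies downstream at chr2:118940634-118940693. The other probes each lie in 1 genomic block: Cdh1 at chr8:109559041-109559100, Prss8 at chr7:127717295-127717353, Spint2 at chr7:28965083-28965142, Cd24a at chr10:43272315-43272374, and the Krt8 probes at chr15:101824949-101825008 (A_51_P242399, from base 1541) and chr15:101824817-101824876 (A_51_P242400, from base 1673).

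Prss8 and the exon-junction probe of St14 were lower in both fractions that carry Flk1 than in Eng-Flk1-, while the downstream St14 probe did not differ beyond the threshold there (0.72, limma, adjusted p = 0.705, for Eng-Flk1+ and 0.21, adjusted p = 0.940, for Eng+Flk1+). At the exon-junction probe, St14 had levels of 3.05, 2.54 and 5.70 for Eng-Flk1- and 2.90, 3.22 and 2.5 for Eng+Flk1-, against -4.02, -2.71 and -0.26 for Eng-Flk1+ and -0.49, -1.71 and -2.29 for Eng+Flk1+. All 6 arrays of Flk1 positive cells lay below all 6 of Flk1 negative cells. This matriptase probe fell by 6.09 (SE 1.03, limma, adjusted p = 0.0127), or 68.1-fold, from Eng-Flk1- to Eng-Flk1+, and fell by 5.25 (SE 1.03, adjusted p = 0.0221), or 38.2-fold, to Eng+Flk1+. Against Eng+Flk1- the differences were -5.20 (adjusted p = 0.122) for Eng-Flk1+ and -4.37 (adjusted p = 0.152) for Eng+Flk1+, and neither passed the threshold. In these samples, fewer cells that express a gene and less of its RNA per cell cannot be told apart.

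Prss8, the prostasin gene, had the same order of fractions. Its levels were 0.91, -1.29 and 2.66 for Eng-Flk1- and 0.61, 0.69 and 0.20 for Eng+Flk1-, against -4.20, -3.03 and -5.21 for Eng-Flk1+ and -4.50, -3.11 and -4.48 for Eng+Flk1+. Again no Flk1 positive array reached the lowest Flk1 negative one. Prss8 fell by 4.91 (SE 0.93, limma, adjusted p = 0.0205), or 30-fold, from Eng-Flk1- to Eng-Flk1+ and fell by 4.79 (SE 0.93, adjusted p = 0.0200), or 27.7-fold, to Eng+Flk1+. The differences from Eng+Flk1- were close in size, -4.65 for Eng-Flk1+ and -4.53 for Eng+Flk1+, at adjusted p of 0.123 and 0.0881. Between the Flk1 negative fractions Prss8 differed by -0.26 (95% interval -2.31 to 1.78), and between the Flk1 positive ones by 0.12 (-1.93 to 2.16).

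Of 32906 probes without a missing value, 0.432% had all 6 Flk1 positive arrays below all 6 Flk1 negative arrays. Among them were 3 member probes: St14 at the exon-junction probe, Prss8 and Spint2, a pattern picked out after the values were seen. Searches for the nearest probes, here and below, left out probes named only by a clone, accession or probe identifier. Among the remaining probes of other genes without a missing value, that of Prss8 lay nearest to this St14 probe. The mean absolute difference of their centred levels over the 12 arrays was 1.03 log2 units. The next was Hbb-bh1, an embryonic beta-like globin of primitive red cells, at 1.06. For Prss8 the nearest were Sdc4, a cell surface proteoglycan, at 0.71, and again Hbb-bh1, at 0.82. The summed signal of 8 primitive erythroid markers had the same order of fractions, in part by design since Hbb-bh1 is one of them. It was 25.6 to 41.0 times the array's 75th percentile in Eng-Flk1- and 8.35 to 16.4 for Eng+Flk1-, against 2.08 to 2.52 for Eng-Flk1+ and 1.61 to 4.05 for Eng+Flk1+. Of the 8, 1 was lower than in Eng-Flk1- in each Flk1 positive fraction (limma), against 0.269% (Eng-Flk1+) and 0.422% (Eng+Flk1+) of all probes. The part of red cell precursors in the protease levels was not tested.

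**Figure D1:**
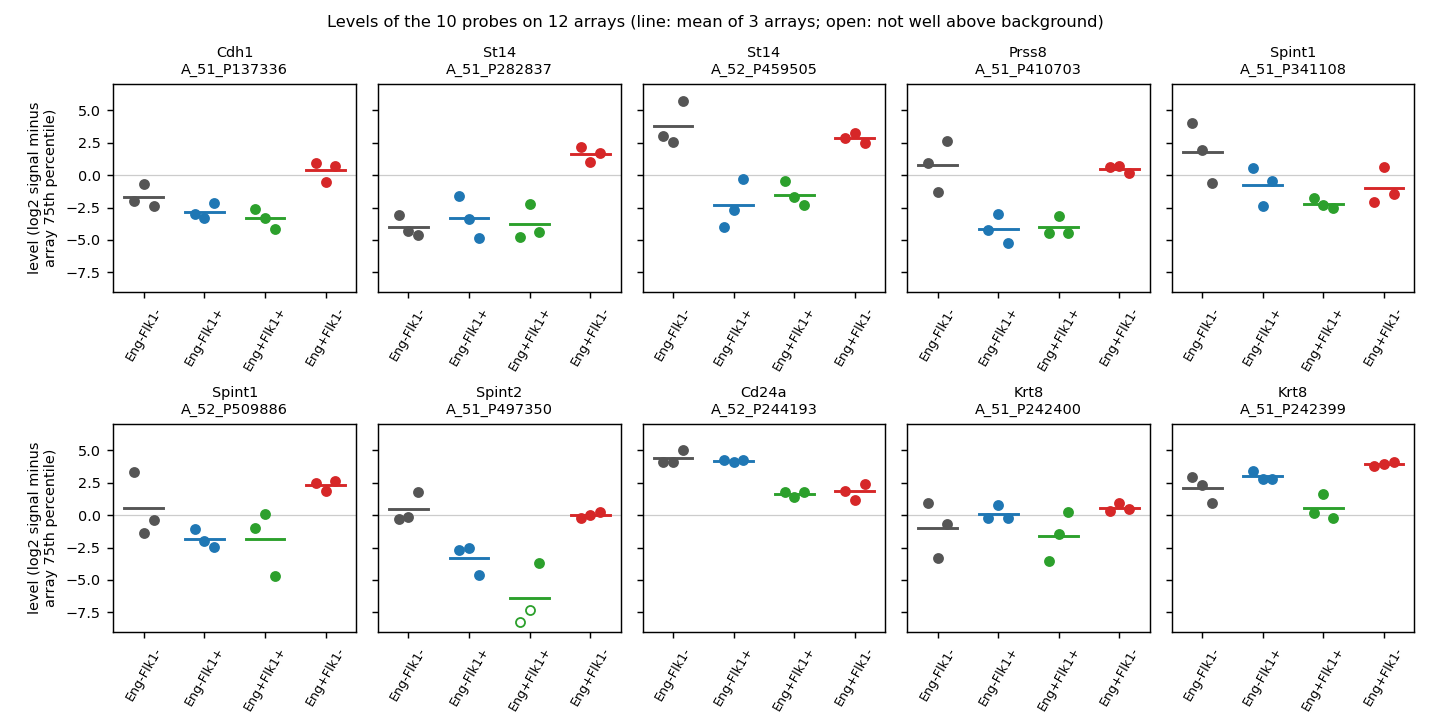
Levels of the 10 member probes (vertical axis, log2 signal minus the 75th percentile of the array) in the 4 fractions (horizontal axis), with 1 point per array, the mean of 3 arrays as a line, and open points for values not well above background. The St14 probe A_52_P459505, Prss8 and Spint2 are lower on all 6 Flk1 positive arrays, Cd24a is lower on all 6 Endoglin positive arrays, and Cdh1, the St14 probe A_51_P282837 and the Krt8 probe A_51_P242399 are highest on the 3 Eng+Flk1- arrays.

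The downstream St14 probe gave a different picture, with the highest matriptase signal in Eng+Flk1-. Its levels were 2.14, 0.99 and 1.70 for Eng+Flk1-, against -3.05, -4.33 and -4.64 for Eng-Flk1-, -1.60, -3.36 and -4.87 for Eng-Flk1+ and -4.78, -2.21 and -4.41 for Eng+Flk1+. Every Eng+Flk1- array lay above the other 9 arrays, which overlapped one another, and 0.875% of probes had their 3 Eng+Flk1- arrays above all others in this way. The probe was higher in Eng+Flk1- than in Eng-Flk1- by 5.61 (SE 0.92, limma, adjusted p = 0.0126), or 49.0-fold, and fell by 5.41 (SE 0.92, adjusted p = 0.0432) from Eng+Flk1- to Eng+Flk1+. The difference between Eng-Flk1+ and Eng+Flk1-, -4.89, did not pass the threshold (adjusted p = 0.0947).

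The probes of St14 thus parted in Eng-Flk1-, where the exon-junction probe overlapped Eng+Flk1- (Eng+Flk1- minus Eng-Flk1-, -0.89, 95% interval -3.17 to 1.40) and the downstream probe overlapped the Flk1 positive fractions. The gap between the probes, upstream minus downstream, was 7.76 ± 2.26 (SD, n = 3) for Eng-Flk1-, 0.95 ± 3.52 for Eng-Flk1+, 2.30 ± 1.90 for Eng+Flk1+ and 1.26 ± 0.84 for Eng+Flk1-. Since the probes differ in their response, only the change of this gap between fractions is read, and all 3 Eng-Flk1- arrays were above the other 9 in it. The downstream probe thus rose from Eng-Flk1- to Eng+Flk1-. The exon-junction probe had a difference of the opposite sign there, -0.89, which did not pass (limma, adjusted p = 0.729). No direction for matriptase between these fractions is read from them, and what sets the gap was not tested.

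**Figure D2:**
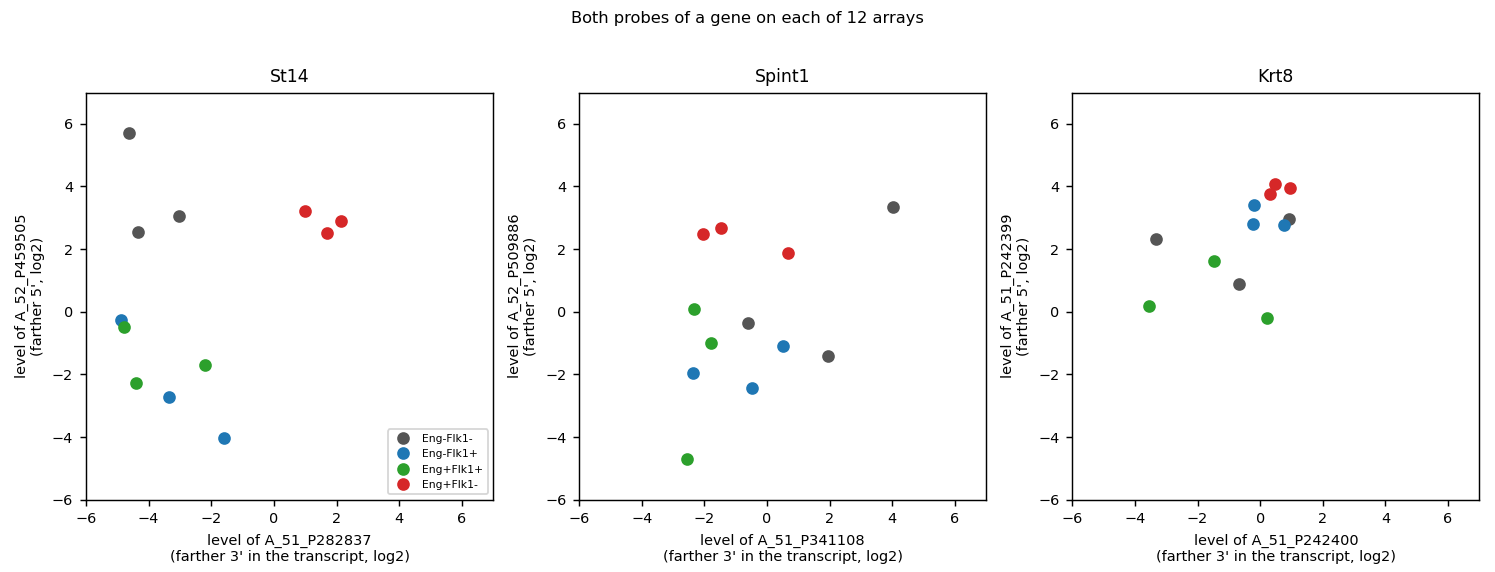
Levels of the probes of St14, Spint1 and Krt8 on each of 12 arrays (log2 signal minus the 75th percentile of the array; horizontal axis, the probe farther 3′ in the transcript; vertical axis, the one farther 5′), coloured by fraction. For St14 the 3 Eng-Flk1- arrays are high on the vertical axis and low on the horizontal axis, and for Spint1 the 3 Eng+Flk1- arrays are high on the vertical axis and spread on the horizontal axis.

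Of the inhibitors, Spint2 (HAI-2) was lower in Eng+Flk1+ than in both Flk1 negative fractions. Its levels were -0.32, -0.16 and 1.78 for Eng-Flk1- and -0.21, -0.01 and 0.21 for Eng+Flk1-, then -2.71, -2.53 and -4.60 for Eng-Flk1+ and -8.27, -7.35 and -3.67 for Eng+Flk1+. The first and second Eng+Flk1+ values were not well above background, so only 1 of 3 arrays measured the gene there and the size of a difference from that fraction is not well determined. Spint2 fell by 6.87 (SE 1.1, limma, adjusted p = 0.00830) from Eng-Flk1- to Eng+Flk1+ and fell by 6.43 (SE 1.1, adjusted p = 0.0454) from Eng+Flk1-. With normexp background correction, which raises dim values, these differences were -3.42 and -3.07, and both still passed. The difference between Eng+Flk1+ and Eng-Flk1+, -3.15, did not pass (adjusted p = 0.750) and was -0.65 with normexp, and the measured Eng+Flk1+ value lay within the range of Eng-Flk1+. The difference between Eng-Flk1+ and Eng-Flk1-, -3.71 (SE 1.1), did not pass (adjusted p = 0.116), and with normexp it was -2.77 (adjusted p = 0.0292).

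Spint1 (HAI-1) had no difference that passed the threshold at either probe in any comparison. The upstream probe had levels of 3.34, -1.42 and -0.35 for Eng-Flk1-, -1.09, -1.97 and -2.43 for Eng-Flk1+, -1.0, 0.10 and -4.71 for Eng+Flk1+ and 2.48, 1.86 and 2.67 for Eng+Flk1-. The downstream probe had 4.02, 1.95 and -0.62 for Eng-Flk1-, 0.51, -2.37 and -0.49 for Eng-Flk1+, -1.77, -2.34 and -2.55 for Eng+Flk1+ and -2.05, 0.66 and -1.48 for Eng+Flk1-. At the upstream probe the 3 Eng+Flk1- arrays lay above both Flk1 positive fractions, while at the downstream probe they overlapped all other fractions. The largest Spint1 differences were -4.21 (SE 1.34, adjusted p = 0.377) between Eng+Flk1+ and Eng+Flk1- at the upstream probe and -4.00 (SE 1.16, adjusted p = 0.110) between Eng+Flk1+ and Eng-Flk1- at the downstream one. The gap between the Spint1 probes, upstream minus downstream, was 3.30 ± 1.82 (SD, n = 3) for Eng+Flk1-, -1.26 ± 1.88 for Eng-Flk1-, -1.05 ± 1.27 for Eng-Flk1+ and 0.35 ± 2.33 for Eng+Flk1+. In it the 3 Eng+Flk1- arrays (1.20 to 4.54) lay above all Eng-Flk1- and Eng-Flk1+ arrays and overlapped only Eng+Flk1+ (-2.16 to 2.43). Without Eng-Flk1- replicate 3, which had the lowest downstream level of its fraction, the downstream difference between Eng+Flk1+ and Eng-Flk1- was -5.20 (limma, adjusted p = 0.0293). It passed only in this 1 of 21 alternative settings, over which it ranged from -5.20 to -1.89.

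Cdh1, the E-cadherin gene, was highest in Eng+Flk1-. Its levels were 0.95, -0.52 and 0.68 there, against -1.97, -0.72 and -2.39 for Eng-Flk1-, -2.99, -3.31 and -2.18 for Eng-Flk1+ and -2.61, -3.28 and -4.12 for Eng+Flk1+. Every Eng+Flk1- array lay above the other 9, which held for 0.875% of probes. The lowest Eng+Flk1- array was only a little above the highest Eng-Flk1- array. Cdh1 fell by 3.71 (SE 0.64, limma, adjusted p = 0.0479), or 13.1-fold, from Eng+Flk1- to Eng+Flk1+. The difference between Eng-Flk1+ and Eng+Flk1-, -3.20 (adjusted p = 0.128), and that between Eng+Flk1- and Eng-Flk1-, 2.06 (adjusted p = 0.157), did not pass. Cdh1 is printed 10 times on each array, and the SD of its spots within an array was 0.0450 to 0.239, well below the SD of 0.58 to 0.87 between arrays of a fraction.

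Krt8 was also highest in Eng+Flk1- and lowest in Eng+Flk1+ at its brighter probe A_51_P242399. Its levels were 3.76, 3.96 and 4.07 for Eng+Flk1-, 3.42, 2.78 and 2.79 for Eng-Flk1+, 2.97, 2.33 and 0.90 for Eng-Flk1- and 0.17, 1.62 and -0.21 for Eng+Flk1+. The 3 Eng+Flk1- arrays were above all others, which held for 0.875% of probes, and Eng+Flk1+ overlapped with Eng-Flk1- alone. No Krt8 difference passed the threshold: that between Eng+Flk1+ and Eng+Flk1- was -3.40 (SE 0.64, limma, adjusted p = 0.0599), and that between Eng+Flk1+ and Eng-Flk1+ was -2.47 (SE 0.64, adjusted p = 0.383). Leaving out the 3 more variable Eng-Flk1- arrays, which that comparison does not use and which cannot change its size, the former passed (adjusted p = 0.0320). In that fit Prss8 also gained a call (limma, adjusted p = 0.0206), while the downstream St14 probe (adjusted p = 0.0516) and Spint2 (adjusted p = 0.0521) lost theirs. The probe A_51_P242400 had levels of 0.93, -3.34 and -0.67 for Eng-Flk1-, -0.20, 0.78 and -0.22 for Eng-Flk1+, -3.56, -1.47 and 0.21 for Eng+Flk1+ and 0.33, 0.94 and 0.47 for Eng+Flk1-. It thus spread over more than 3 log2 units within both Eng-Flk1- and Eng+Flk1+, and the order of fractions could not be read from it.

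Cd24a was the one member that followed Endoglin and not Flk1. Its levels were 4.07, 4.09 and 5.01 for Eng-Flk1- and 4.29, 4.08 and 4.23 for Eng-Flk1+, against 1.81, 1.38 and 1.75 for Eng+Flk1+ and 1.87, 1.19 and 2.43 for Eng+Flk1-. All 6 Endoglin positive arrays lay below all 6 Endoglin negative ones, which held for 0.240% of probes. Cd24a fell by 2.56 (SE 0.47, limma, adjusted p = 0.0213), or 5.89-fold, from Eng-Flk1- to Eng+Flk1- and fell by 2.74 (SE 0.47, adjusted p = 0.0109), or 6.70-fold, to Eng+Flk1+. The difference between Eng+Flk1+ and Eng-Flk1+ was of like size, -2.55 (95% interval -3.58 to -1.52), but did not pass in that comparison, where 0.0332% of all probes changed (adjusted p = 0.141). Eng-Flk1+ minus Eng+Flk1- was 2.37 (95% interval 1.34 to 3.40, adjusted p = 0.116). The difference of the Endoglin effect between Flk1 positive and Flk1 negative cells was 0.01 (95% interval -1.45 to 1.46). The probes nearest to Cd24a over the 12 arrays were those of Gja1, which encodes a gap junction connexin, at a mean absolute difference of 0.42, and Prtg (protogenin), at 0.51.

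Read by comparison, 2 of 10 member probes changed between Eng-Flk1+ and Eng-Flk1-, St14 at the exon-junction probe and Prss8, and both were lower, against 2.61% of all probes that changed and 0.269% that were lower. Between Eng+Flk1+ and Eng-Flk1-, 4 of 10 were lower (St14 at the same probe, Prss8, Spint2 and Cd24a), against 0.422% of all probes that were lower and 3.03% that changed. Between Eng+Flk1- and Eng-Flk1-, 1 was higher (St14 at the downstream probe) and 1 was lower (Cd24a), against 1.77% and 0.238% of all probes, with 2.01% changed in all. Between Eng+Flk1+ and Eng+Flk1-, 3 were lower (Cdh1, St14 at the downstream probe and Spint2), against 0.127% of all probes that were lower and 0.341% that changed. All 10 differences of that comparison were negative, with a median of -3.96 against -0.02 over all probes. The Cd24a difference, -0.19, turned positive under 1 of 23 alternative settings. The members were chosen with earlier results of these data known, so counts and medians beside those of all probes are not independent evidence. St14, Spint1 and Krt8 also count with 2 probes each among the 10.

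The comparison of the Flk1 positive fractions with one another called no member and 0.0332% of all probes (limma). There, 3 of 10 member probes had an unadjusted p under 0.05, beside 1659 of all 33142 probes tested. That of Eng-Flk1+ with Eng+Flk1- called no member and 0.124% of probes. In it, 7 of 10 member probes had an unadjusted p under 0.05 (limma), beside 1898 of all 33142 probes. With normexp background correction the latter called 3 members (Cdh1, the downstream St14 probe and Cd24a), and with array quality weights 5 (these, Prss8 and the other St14 probe). The interaction, the Endoglin effect in Flk1 positive minus that in Flk1 negative cells, called no member and 0.549% of probes. Of the 10 member probes, 3 had an unadjusted p under 0.05 (limma), beside 3696 of all 33142 probes. The largest member values of the interaction were -6.13 (SE 1.29, limma, adjusted p = 0.0771) for the downstream St14 probe and -4.33 (SE 0.90, adjusted p = 0.0702) for Krt8.

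**Figure D3:**
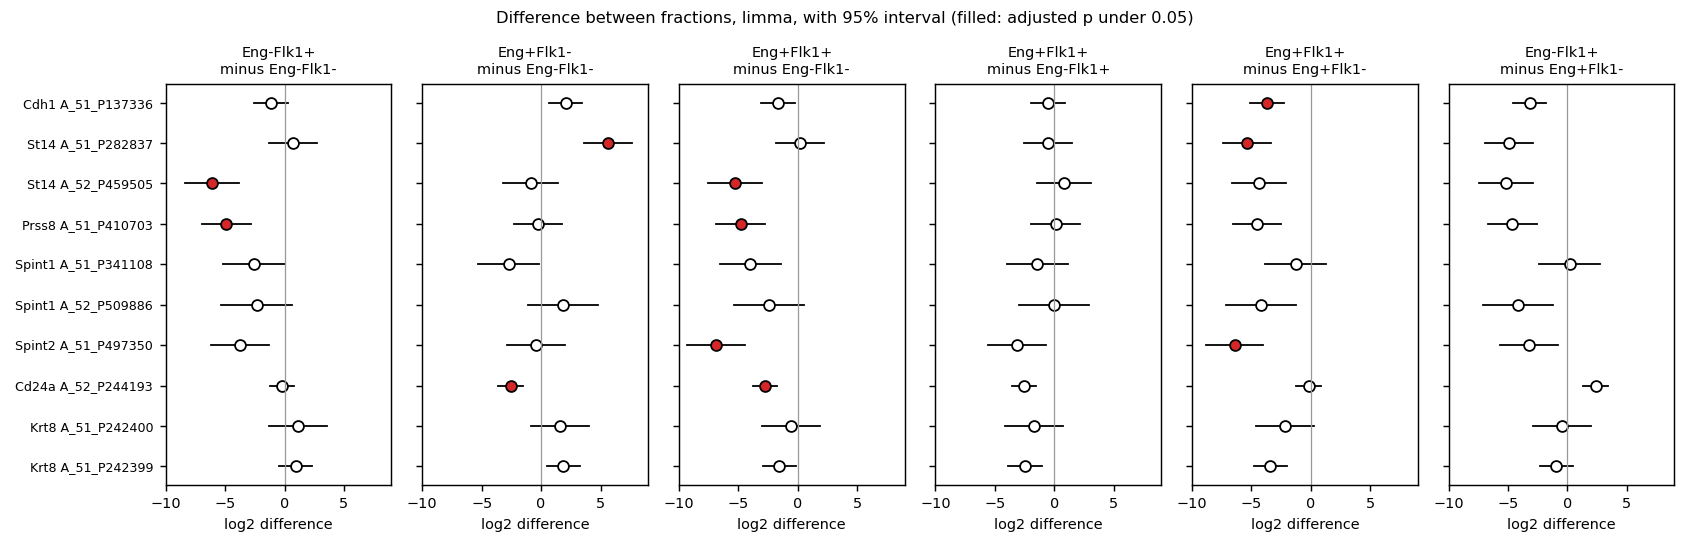
Differences between fractions (horizontal axes, log2) for the 10 member probes (rows) in the 6 pairwise comparisons, from limma, with 95% intervals and filled points at an adjusted p under 0.05. Filled points number 2, 2, 4, 0, 3 and 0 from left to right, and all but the downstream St14 probe in Eng+Flk1- minus Eng-Flk1- lie below 0.

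Several of these calls were lost when 1 array was left out, and some differences changed in size. A call could also be lost with nearly the same difference. Prss8 between Eng-Flk1+ and Eng-Flk1- was -4.88 without Eng-Flk1+ replicate 1, against -4.91 with all arrays. Leaving out each array in turn, Spint2 and Cd24a kept their call between Eng+Flk1+ and Eng-Flk1- in all 12 fits. Prss8 lost its call there without Eng+Flk1+ replicate 1 or 3 (highest adjusted p 0.0771), and between Eng-Flk1+ and Eng-Flk1- without Eng-Flk1+ replicate 1 or 3 (highest 0.0946). St14 at the exon-junction probe lost its call without Eng-Flk1+ replicate 1 in the first comparison (-5.24, adjusted p = 0.0519) and without Eng+Flk1+ replicate 2 or 3 in the other (highest 0.0875). Between Eng-Flk1+ and Eng-Flk1- the exon-junction St14 difference ranged from -7.12 (without Eng-Flk1+ replicate 3) to -5.12 (without Eng-Flk1- replicate 3), and that of Prss8 from -5.94 to -3.96 (without Eng-Flk1- replicate 2 and 3). Between Eng+Flk1+ and Eng-Flk1- they ranged from -5.87 to -4.29 for St14 and from -5.82 to -3.84 for Prss8, in both without Eng-Flk1- replicate 2 and 3, and that of Spint2 from -8.25 to -5.95 (without Eng+Flk1+ replicate 3 and 1). The calls between Eng+Flk1- and Eng-Flk1- were lost without Eng+Flk1- replicate 1 for the downstream St14 probe (5.35, adjusted p = 0.0531) and without Eng+Flk1- replicate 1 or 2 for Cd24a (highest 0.0878).

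Between Eng+Flk1+ and Eng+Flk1- the 3 calls were near the threshold. Cdh1 kept its call only without Eng-Flk1- replicate 2 or 3, with differences from -4.16 to -3.32 over the 12 fits and adjusted p up to 0.162. Spint2 kept its call only without Eng-Flk1- replicate 3 or Eng+Flk1+ replicate 3 (-7.81 to -5.51, adjusted p up to 0.143). The downstream St14 probe lost its call without Eng-Flk1- replicate 2, Eng-Flk1+ replicate 2, Eng+Flk1+ replicate 1 or 3, or any Eng+Flk1- array (-6.20 to -4.92, adjusted p up to 0.137). Within a slide, fractions could be set side by side for 3 comparisons without a test. On slide 3, Eng+Flk1+ (1 array) was below Eng+Flk1- (3 arrays) by -4.49 for Cdh1, -6.02 for the downstream St14 probe and -3.67 for Spint2. On slide 1, Eng-Flk1+ (1 array) differed from Eng-Flk1- (3 arrays) by -7.78 for the exon-junction St14 probe and -4.96 for Prss8. On slide 2, with 2 arrays of each Flk1 positive fraction, Cd24a differed by -2.56, Eng+Flk1+ minus Eng-Flk1+. Spint2 differed by -4.25 there, but its signal was not well above background on either Eng+Flk1+ array, so that size is not determined.

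The list of genes that work with matriptase and prostasin held 21 names (related proteases, receptors and substrates, the subunits of the epithelial sodium channel, hepatocyte growth factor and its receptor, Epcam and Cldn7), of which 20 were tested. Between Eng+Flk1- and Eng-Flk1-, 1 rose and 0 fell, against 1.77% of all probes that were higher. In the comparisons of Eng+Flk1+ and of Eng-Flk1+ with Eng+Flk1-, 1 fell in each, against 0.127% and 0.0483% of all probes that were lower. All 3 calls were of F2rl1, which encodes a receptor that proteases switch on by cutting it and that acts downstream of matriptase. Its levels were -3.28, -2.49 and -3.46 for Eng+Flk1-, all well above background, and between -8.70 and -5.54 on the other 9 arrays, of which only Eng+Flk1+ replicate 2 was well above background. F2rl1 was at least 6.06-fold higher in Eng+Flk1- than in Eng-Flk1- (limma, adjusted p = 0.00879) and at least 8.91-fold lower in Eng-Flk1+ (adjusted p = 0.0345). These bounds set each dim value no lower than the lowest signal of any probe that counts as well above background on that array. They hold only for the processed signal and are not limits under another background correction. With normexp neither difference passed, at 0.49 log2 (adjusted p = 0.497) and -1.25 (adjusted p = 0.296). In Eng+Flk1+ only 1 of 3 arrays measured F2rl1, so no fold is given. That call (adjusted p = 0.0419) was lost in 10 of the 12 fits that leave out an array and with normexp (-0.96 log2, adjusted p = 0.434), and the call against Eng-Flk1+ was lost without any Eng-Flk1+ or any Eng+Flk1- array.

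Epcam, an epithelial adhesion protein that matriptase cuts and that stabilises claudin-7, fell by 4.17 (SE 0.90, limma, adjusted p = 0.0345) from Eng-Flk1- to Eng+Flk1+, the 1 gene of the list to change there, against 0.422% of all probes that were lower. Its levels were 3.56, 3.03 and 1.93 for Eng-Flk1- and 3.52, 3.51 and 3.42 for Eng+Flk1-, against -1.39, -1.06 and 1.70 for Eng-Flk1+ and -1.18, -0.05 and -2.76 for Eng+Flk1+. All Flk1 negative arrays were above all Flk1 positive ones, as for Prss8 and for 0.432% of probes, a pattern picked out after the values were seen. The Cldn7 differences from Eng-Flk1- were -3.63 (adjusted p = 0.163) for Eng-Flk1+ and -2.84 (adjusted p = 0.291) for Eng+Flk1+. The list as a whole had a median difference of -0.50 between Eng-Flk1+ and Eng-Flk1-, -0.34 between Eng+Flk1+ and Eng-Flk1- and -0.03 between Eng+Flk1+ and Eng+Flk1-, beside medians of all probes of 0.02, 0.04 and -0.02. Epcam passed under 10 of 22 alternative settings. With slide as a block neither F2rl1 nor Epcam passed (adjusted p from 0.190 to 0.728).

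**Figure D4:**
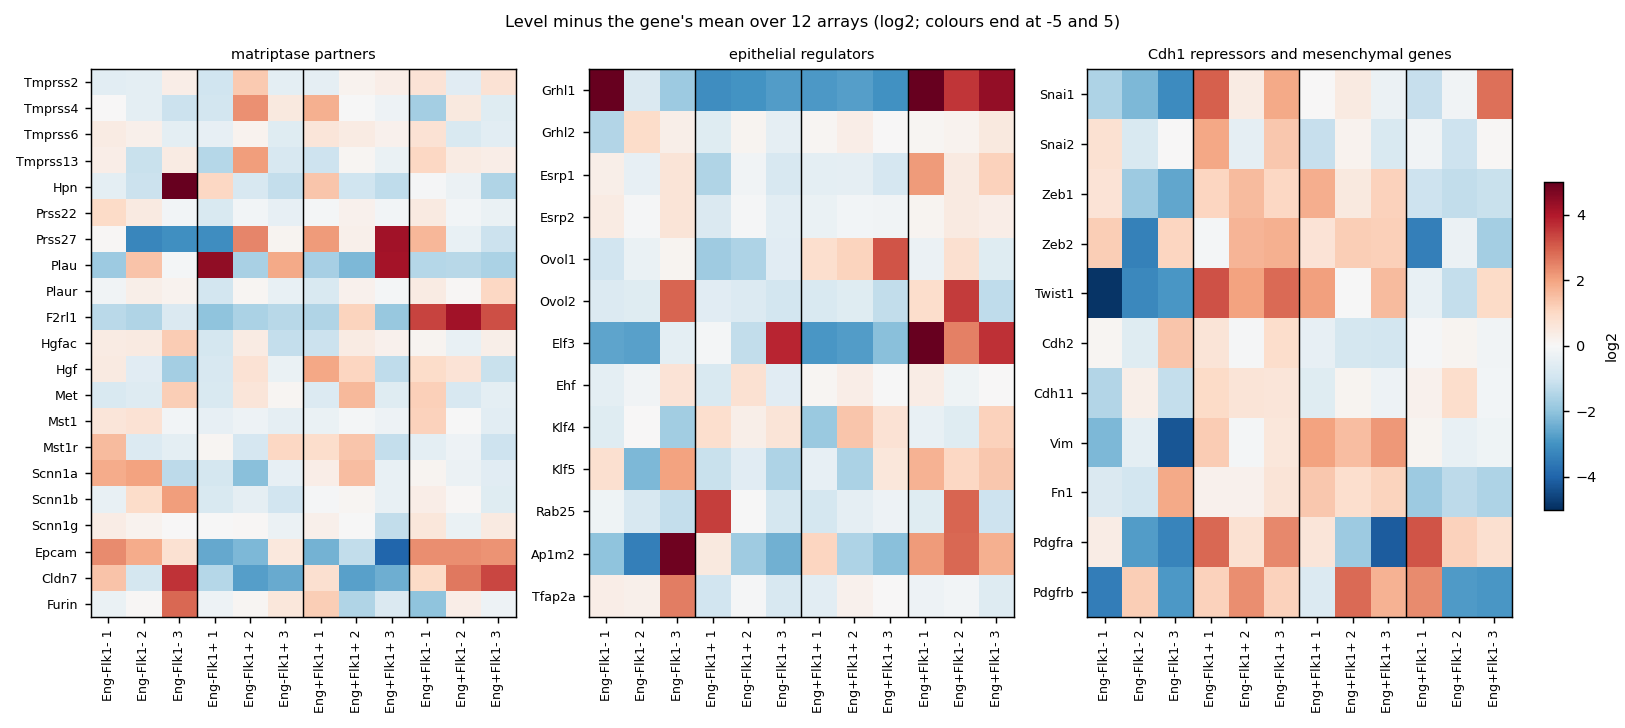
Level of each gene minus its own mean over 12 arrays (colour, log2, ending at -5 and 5) for the matriptase partners, epithelial regulators and Cdh1 repressors with mesenchymal genes (rows) on each array (columns, grouped by fraction). F2rl1 is high on the 3 Eng+Flk1- arrays, Epcam is high on the 6 Flk1 negative arrays, and Twist1 is low on the 3 Eng-Flk1- arrays.

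Among 31 tested genes of epithelial junctions and polarity, 1 changed in 1 comparison, where 1.77% of all probes were higher. Patj, a scaffold of the apical Crumbs complex, rose by 3.84 (SE 0.84, limma, adjusted p = 0.0473) from Eng-Flk1- to Eng+Flk1-, where its levels were 0.98, 0.16 and 0.10 against -3.47, -3.43 and -3.36. It passed under 4 of 22 alternative settings. The median difference of the list was 0.93 in that comparison and -0.76 between Eng+Flk1+ and Eng+Flk1-, beside medians of all probes of 0.04 and -0.02. Cldn6, an embryonic claudin, had levels of 4.68, 3.83 and 3.45 for Eng+Flk1- and -3.29, -2.81 and -3.42 for Eng+Flk1+, yet the difference of -7.16 (SE 1.53) did not pass (adjusted p = 0.10). None of 8 other epithelial keratins changed in any comparison (limma), among them Krt18, the filament partner of Krt8, whose difference between Eng+Flk1+ and Eng+Flk1- was -1.27 (SE 0.43, adjusted p = 0.444).

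Of 13 epithelial regulators tested, 1 rose from Eng-Flk1- to Eng+Flk1-, against 1.77% of all probes that were higher. Elf3, an ETS factor of epithelia, had levels of -0.42, -2.88 and -1.73 for Eng+Flk1- and was not well above background in Eng-Flk1-. By the same bound on the processed signal it was at least 16-fold higher (limma, adjusted p = 0.0409). This rise passed under 6 of 21 alternative settings. With normexp the difference was 1.48 log2 (adjusted p = 0.300). Grhl1, a Grainyhead-like factor, was well above background in Eng+Flk1- with levels of -0.22, -1.74 and -0.91 and lay between -8.42 and -8.05 on the 6 Flk1 positive arrays. By that bound it was at least 37.3-fold lower in Eng+Flk1+ than in Eng+Flk1-, which did not pass (limma, adjusted p = 0.173). Its Eng-Flk1- levels of 1.77, -6.03 and -7.10 spread widely.

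Among 11 genes of the list of Cdh1 repressors and mesenchymal genes, 1 rose from Eng-Flk1- to Eng-Flk1+ and 2 rose to Eng+Flk1+, against 2.34% and 2.60% of all probes that were higher. Twist1, a mesodermal bHLH factor that lowers E-cadherin, was not well above background in Eng-Flk1- and was at least 37.3-fold higher in Eng-Flk1+ (limma, adjusted p = 0.00258) and at least 13.6-fold higher in Eng+Flk1+ (adjusted p = 0.00827). These bounds, too, hold for the processed signal: with normexp the differences were 2.32 log2 (adjusted p = 0.0332) and 1.19, which did not pass (adjusted p = 0.251). Vim, the intermediate filament of mesenchymal cells, rose by 4.24 (SE 0.81, adjusted p = 0.0192) to Eng+Flk1+, where its levels were 3.69, 3.26 and 3.87 against -0.54, 1.20 and -2.58. Snai1, the Snail repressor of Cdh1 at gastrulation, was by the same bound at least 9.15-fold higher in Eng-Flk1+ than in Eng-Flk1-, which did not pass (limma, adjusted p = 0.0572). With slide as a block, Twist1 and Vim did not pass either (adjusted p from 0.0911 to 0.570).

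Several marker lists of cell types, some of them epithelial, also differed between the fractions, and their orders of fractions were not all the same. The summed signal of 13 visceral endoderm markers was 108 to 318 times the array's 75th percentile in Eng-Flk1- and 6.86 to 17.2 in the other fractions, with 11 to 13 of 13 markers well above background on every array. The sum of 13 markers of extraembryonic ectoderm and trophoblast was 37.7 to 40.3 for Eng+Flk1- and 4.97 to 12.1 elsewhere, so it was high in the fraction where Cdh1, the downstream St14 probe and Krt8 were highest. The 10 epiblast markers summed to 33.0 to 107 for Eng-Flk1-, 17.5 to 24.0 for Eng+Flk1- and 7.97 to 13.2 in the Flk1 positive fractions. The 8 definitive endoderm and node markers overlapped between all fractions (12.6 to 50.4), and 10 endothelial markers were highest in Eng+Flk1+ (41.2 to 71.8 against 3.25 to 18.2). The part of these cell types in the member differences was not tested.

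**Figure D5:**
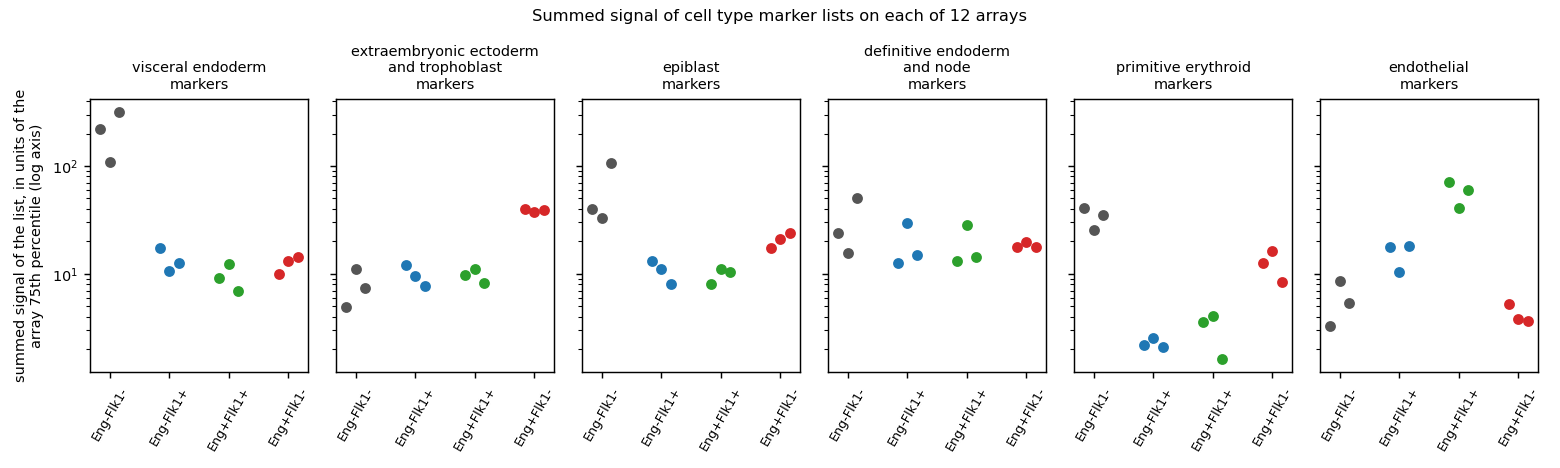
Summed signal of 6 cell type marker lists (vertical axis, in multiples of the 75th percentile of the array, log axis) on each of 12 arrays by fraction. The visceral endoderm sum is highest on the 3 Eng-Flk1- arrays, the extraembryonic ectoderm and trophoblast sum on the 3 Eng+Flk1- arrays and the endothelial sum on the 3 Eng+Flk1+ arrays.

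Of the other members, the nearest probes over the 12 arrays were those of Slc19a3, a thiamine transporter (0.59), and Irx2, an Iroquois homeobox factor (0.62), for Cdh1. They were Ptpn3, a tyrosine phosphatase (0.79), and the homeobox gene Obox5 (0.82) for Spint1 at its upstream probe, and the metallothionein gene Mt2 (0.96) and the Polycomb gene Cbx7 (1.08) for Spint2. For Krt8 they were Rxfp1, a relaxin receptor (0.48), and Klhl12 (0.55). These are mean absolute differences of centred log2 levels. The search took the 32906 probes without a missing value, less those named only by a clone, accession or probe identifier.

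Promoter sequence was on hand for 3 of the 7 members, from RefSeq on build GRCm38.p6. It is shown for these 3, 2 protease inhibitors and a keratin, because they are the members whose sequence was on hand. Capitals mark the motifs searched on either strand: CAGGTG, an E-box of the kind bound by Snail and Zeb repressors, CCGGTT, part of the Grainyhead-like motif, GGGCGG, the GC box, and TATAAA, the TATA box. Each sequence runs 5′ to 3′ on the gene's strand and ends before the outermost annotated start of the gene, which leaves 168 bases for Spint2 and 250 for the others.

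Spint1, chr2:119237110-119237359, plus strand: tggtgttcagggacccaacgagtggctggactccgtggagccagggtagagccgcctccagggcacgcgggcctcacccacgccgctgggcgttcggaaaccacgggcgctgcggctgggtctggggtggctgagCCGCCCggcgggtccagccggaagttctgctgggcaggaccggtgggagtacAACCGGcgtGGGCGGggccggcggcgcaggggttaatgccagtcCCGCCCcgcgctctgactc

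Spint2, chr7:29282060-29282227, minus strand: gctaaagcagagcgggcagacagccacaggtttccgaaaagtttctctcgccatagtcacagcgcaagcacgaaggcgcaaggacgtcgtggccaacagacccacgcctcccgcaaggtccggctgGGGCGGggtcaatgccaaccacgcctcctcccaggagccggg

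Krt8, chr15:102004343-102004592, minus strand: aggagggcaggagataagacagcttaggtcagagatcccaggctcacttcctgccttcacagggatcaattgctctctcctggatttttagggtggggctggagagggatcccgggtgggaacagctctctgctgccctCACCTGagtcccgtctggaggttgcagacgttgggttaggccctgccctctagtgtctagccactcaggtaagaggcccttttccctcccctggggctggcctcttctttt

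The 300-base RefSeq window of each gene (250 bases before and 50 after its listed start) held 3 GC boxes and 1 CCGGTT for Spint1, 3 GC boxes and 3 CAGGTG for Spint2, and 1 CAGGTG and 2 TATAAA for Krt8. Of 32851 such windows of all genes, 20.2% hold CAGGTG, 6.83% CCGGTT, 35.7% GGGCGG and 13.6% TATAAA. A match is only a run of these letters, and binding at these windows was not measured here.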

How the data were processed

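Gene expression was measured in 12 samples on 1-colour Agilent whole-genome arrays, 1 array per sample. Per the labels' protocols, mRNA-derived cDNA of sorted cells went through SuperAmp, a PCR of the whole cDNA, and 250 ng of the product were labelled with Cy3. The deposited processed signals are intensity per spot, with background subtracted and no scaling between arrays, read with Agilent Feature Extraction 10.5.1.1 per the file headers. The other deposited values used are the scanner software's flags for each spot (outlier, saturation, signal above background), a score of 0 or 1. The array design and its probe positions are on build mm8, per the file headers. The authors' combined table was not used.

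From these, 1639 control spots were left out, outlier spots were set aside, log2 was taken, the 75th percentile of each array was subtracted and spots of a probe were averaged. No spot was saturated. The probes tested were well above background on each of the 3 arrays of some fraction: 33142 of 41174. One model with the 4 fractions was fitted with limma 3.58.1 in R 4.3.3, with moderated tests and 6 pairwise contrasts and the interaction. It takes 1 spread per probe over all fractions. An array has no depth in reads, and the number of arrays limits the precision. The fitting step was tested on simulated data.

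The members and gene lists were chosen with earlier results of these data known, so no set is independent evidence. Named genes are all members, Kdr and Eng, up to 3 genes of each list with the lowest p in a comparison and any that pass (at most 6), and the 2 probes nearest to each member's highest probe; of those, the ones that bear on the members are described. List genes were matched by name in the files (143 of 150) or by accession in the RefSeq annotation (3). Replicate numbers did not pair samples: deviations of same-numbered arrays had a mean correlation of 0.00073. Alternatives were normexp, 3 other scalings, 2 filters, blocks for slide and replicate number, array weights, 1 probe per name, each array left out and all Eng-Flk1- arrays left out.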

Additional observations from a re-analysis of the deposited data

Results flagged for a closer look

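None of the 10 member probes had an interaction of Endoglin and Flk1 that passed the threshold (limma). An unadjusted p under 0.05 was seen for 3 of them, beside 3696 of all 33142 probes tested. Of the list genes named by the rule, 2 passed the threshold. Elf3, an epithelial ETS factor, had an interaction of -9.07 (SE 1.68, limma, adjusted p = 0.0479): its signal was well above background on the 3 Eng+Flk1- arrays, but on no array of Eng-Flk1- or Eng+Flk1+ and on only 2 of 3 of Eng-Flk1+, so the size is not determined and no difference between cells is read from it. With normexp background correction it was -2.11 (adjusted p = 0.385), and it passed under 5 of 21 alternative settings. Ttr, the transthyretin gene of the visceral endoderm, had an interaction of 4.22 (SE 0.76, limma, adjusted p = 0.0440), with levels of 0.20, 0.60 and 0.95 in Eng-Flk1- and -1.79 or lower on all other arrays. This passed under 4 of 22 alternative settings. Groups of 3 arrays are too small for a check of single outlying arrays.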

How the results depend on the processing

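Over 23 alternative settings, the 70 member differences (10 probes, 7 contrasts) kept their side of the threshold in 1447 of 1542 fits, lost a call in 68 and gained one in 27. Only 11 of the 70 were called, so the 68 losses all fall on these. No called difference changed sign, while uncalled ones did so in 55 fits. With slide as a block, the number of called members was 0 in all contrasts, down from 2 (Eng-Flk1+ minus Eng-Flk1-), 2 (Eng+Flk1- minus Eng-Flk1-), 4 (Eng+Flk1+ minus Eng-Flk1-) and 3 (Eng+Flk1+ minus Eng+Flk1-). Array quality weights gave 1, 0, 0 and 5 in the same order, with 1 for Eng+Flk1+ minus Eng-Flk1+ and 5 for Eng-Flk1+ minus Eng+Flk1-. No filter on dim probes gave 0 for Eng+Flk1+ minus Eng+Flk1-. Quantile normalization and 1 probe per name gave 1 for Eng+Flk1- minus Eng-Flk1-. Eng-Flk1+ minus Eng+Flk1-, with 0 calls, gave 3 with normexp and 1 with quantile normalization or without the Eng-Flk1- arrays. The cause was not tested, except that 1 probe per name leaves out the downstream St14 probe.

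With the replicate number as a block, a pairing that the data do not show, 1 member was called in Eng-Flk1+ minus Eng-Flk1- and 0 in Eng+Flk1+ minus Eng+Flk1-. Over the fits that leave out 1 array, called members ranged from 0 to 3, 0 to 2, 2 to 5 and 0 to 5 in the 4 contrasts with calls, in the order above, 0 to 0 in Eng+Flk1+ minus Eng-Flk1+, and 0 to 1 in Eng-Flk1+ minus Eng+Flk1- and in the interaction.

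Median scaling moved the median difference of all probes against Eng-Flk1- from 0.02 to -0.58 (Eng-Flk1+), 0.04 to -0.52 (Eng+Flk1-) and 0.04 to -0.55 (Eng+Flk1+), and the share of calls that were higher from 89.7% to 68.2%, 88.1% to 69.4% and 86.0% to 68.4%. Quantile normalization gave shares of 64.5%, 77.2% and 73.9%, and normexp 75%, 74.1% and 71.0%. Of all probes, 864, 665, 1003, 11, 113 and 41 changed in the 6 comparisons (the order of the plot of differences), against 52, 0, 6, 0, 16 and 0 with slide as a block, 345, 216, 341, 69, 344 and 372 with array weights, 380, 239, 435, 0, 137 and 64 with normexp, and 273, 219, 345, 0, 51 and 9 among probes well above background on all arrays. Without Eng-Flk1- replicate 2 the first 3 were 1796, 1446 and 1771. Probes near background, such as Spint2 in Eng+Flk1+, have differences that depend on the background correction.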
